A study of Mus musculus with 18 samples.

Results

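The comparison described here is that of Sirt6 knockout (KO) with wild-type (WT) mouse bone marrow-derived mast cells (BMMCs) at the level that the labels call 20. Its members are the libraries whose labels give the genotype and that level, 6 of the 18 libraries of the series, with 3 of each genotype. KO cells are labelled LysM-Cre; Sirt6 flox/flox, and WT cells Sirt6 flox/flox without Cre. Both therefore have floxed Sirt6, its alleles carrying loxP sites, and the genotypes differ in Cre, which in this line is expressed from the lysozyme M promoter, active in myeloid cells. All 6 libraries carry the treatment label LPS, the ligand of Toll-like receptor 4, whereas the series title names FcεRI, the high-affinity IgE receptor. The unit of the levels 0, 20 and 60 is not given, and libraries at 0 carry no treatment label. Each genotype has 1 library with each of the numbers 4120, 414 and 6110, and all values by library below are in that order. The labels do not say whether the numbers are animals or cultures. The p-values here therefore speak of the spread between the libraries of this series alone, which may be technical.

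Mast cells are tissue-resident cells of the myeloid lineage that store proteases and amines in granules and release them, with lipid mediators and cytokines, when IgE bound to FcεRI is cross-linked. Marrow cultured in mast cell medium gives cells that express FcεRI and the stem cell factor receptor Kit. SIRT6 is a nuclear NAD-dependent deacylase of histone H3 that acts on glycolytic and lipid genes, on DNA repair and on NF-κB target promoters, from work in other cells. The title of the series calls it a negative regulator of FcεRI signalling.

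RNA was measured by sequencing of mRNA libraries, and the deposited read counts of 45777 genes were analysed. The 6 libraries held 25642829 to 33306602 counts, and 3 counts corresponded to 0.0858 to 0.135 CPM, the read count scaled to library size that is used throughout, which sets the limit of detection from counting error alone. Mast cell genes were present in every library: none of the 18 mast cell markers listed was at 0, and Fcer1a and Kit lay above 1000 CPM in all 6. Genes of mitochondrial DNA took 5.56, 8.21 and 5.28% of counts in KO and 33.8, 6.56 and 12.2% in WT (two-sided exact permutation test p = 0.2, n = 3 each). The WT library 4120 had the highest share and stood apart on the first principal component, which held 38.0% of the variance of the 6 libraries.

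Sirt6 itself was read in both genotypes, with 475, 394 and 738 counts in KO and 238, 545 and 553 counts in WT. Its level was 17.1 ± 3.47 CPM in KO and 14.7 ± 3.501 CPM in WT (SD, n = 3 each; two-sided exact permutation test p = 0.6, smallest possible 0.1). A count over the whole gene does not check the genotype labels, since no source used here names the exons between the loxP sites. Lyz2, which encodes lysozyme M and is the gene into which Cre is inserted in the widely used LysM-Cre line, had 6, 2 and 2 counts in KO against 61, 49 and 62 counts in WT. Every KO library was lower than every WT library for Lyz2, but the gene did not pass the test across all genes (log2 fold change -4.17, SE 1.01, edgeR with Benjamini-Hochberg adjusted p = 0.168). It passed in 5 of 20 alternative analyses, among them DESeq2 (Benjamini-Hochberg adjusted p = 0.00297).

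Few genes passed the main test of the genotypes, and those that did had large fold changes. With 3 libraries of each genotype small changes seldom pass such a test, so the size of the changes partly follows from the selection. Of 17159 genes tested with edgeR's quasi-likelihood test, 36 were called at a Benjamini-Hochberg adjusted p under 0.05, which is 0.21% of the genes tested. The called genes comprised 10 that rose in KO (0.0583%) and 26 that fell (0.152%). Their median absolute log2 fold change was 4.22 and the smallest was 1.17. Over all genes tested the median of the signed values was -0.02 and 48.3% were positive, which describes direction and not size. An unadjusted p under 0.05 was reached by 1336 genes (7.79%), and all 3 KO libraries lay above all 3 WT libraries for 1433 genes (8.35%) and below them for 1535 (8.95%). For all 36 called genes the libraries of the genotypes did not overlap. The count was 22, 22 and 23 without the KO library 4120, 414 or 6110, 18 without number 414 in every group, and 119 with DESeq2. In a fit of the 6 libraries at 20 alone it was 26, of which 22 were among the 36. The main fit took its error from all 18 libraries, treated as independent. Libraries of the same genotype and number may share a source, as described below, so its p-values may be too small.

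**Figure D1:**
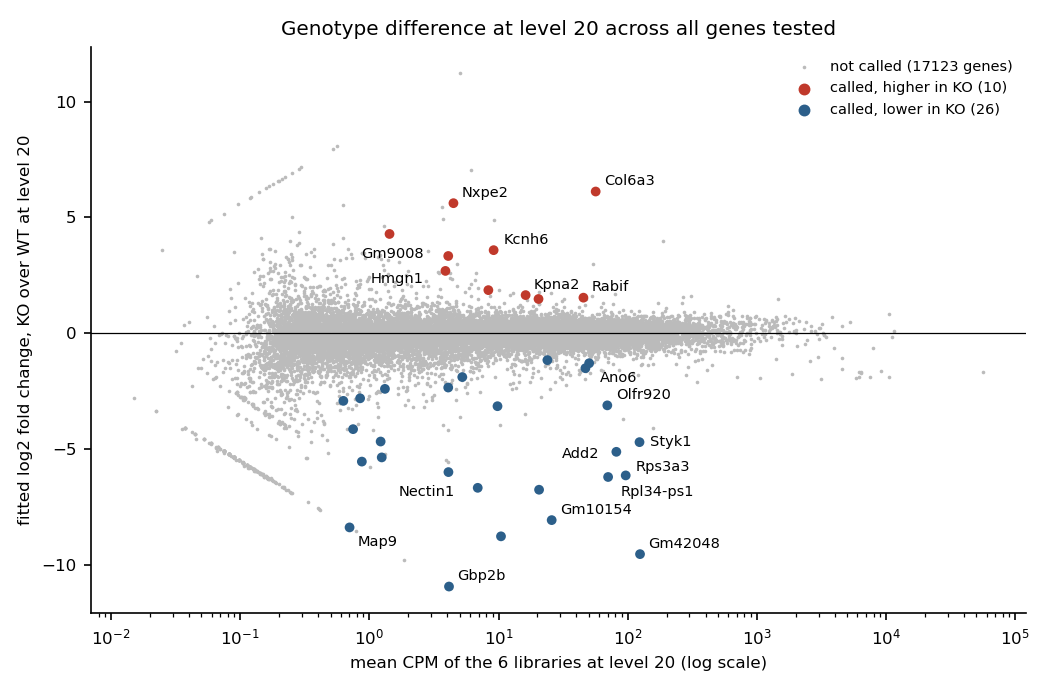
Each point is a gene, with its mean CPM over the 6 libraries at level 20 on the horizontal log axis and its fitted log2 fold change (KO over WT) on the vertical axis; red points are the 10 called genes that rose and blue points the 26 that fell. Many of the called genes lie away from the band of the other genes. Some genes that were not called, such as Cadm1, have larger fold changes than called genes such as Ano6. The faint diagonal lines of grey points are genes with no count in 1 genotype.

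By annotation, 20 of the called genes were protein coding, among them Rpl34-ps1 in spite of its name, 13 were pseudogenes and 3 were long noncoding RNAs. Of the pseudogenes 12 fell, and pseudogenes made up 7.59% of all genes tested. Among the called genes 27 reached a mean of 5 CPM in a genotype, and these are given library by library below. Positions are those of RefSeq on GRCm38 (mm10). Called genes that overlap another RefSeq gene are Rps3a3, Gm4705, Nectin1, Clba1, Nxpe2, Dixdc1, Kpna2, Ano6, LOC115487382, Rabif, Kcnh6, Tanc2 and LOC115487104. No source used here states the strand of the libraries, so reads of a gene and of one that overlaps it on the other strand cannot be told apart. In bulk RNA a change in the number of cells of a type and in the RNA per cell cannot be told apart either.

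Of the called genes 7, all lower in KO, were copies of ribosomal protein genes. Rps3a1 and Rpl34 encode proteins of the small and the large ribosomal subunit, and both have intronless copies elsewhere in the genome. The transcript of Rps3a3 (chromosome 13, 108670580 to 108671443, inside Pde4d) aligned to that of Rps3a1 over 795 bases with 9 mismatches, and that of Rpl34-ps1 (chromosome 6, 71124589 to 71125001) to Rpl34 over 354 bases with 2 mismatches. The matching stretches below, from GENCODE M21 transcripts (GRCm38), show how little distinguishes reads of the copy from reads of the parent gene; capitals mark the bases that differ.
Rps3a1: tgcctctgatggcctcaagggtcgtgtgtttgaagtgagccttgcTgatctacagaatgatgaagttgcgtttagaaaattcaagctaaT
Rps3a3: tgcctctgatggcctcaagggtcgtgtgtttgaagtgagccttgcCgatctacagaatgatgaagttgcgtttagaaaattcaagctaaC
Rpl34: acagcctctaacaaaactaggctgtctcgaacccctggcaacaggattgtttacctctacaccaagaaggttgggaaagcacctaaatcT
Rpl34-ps1: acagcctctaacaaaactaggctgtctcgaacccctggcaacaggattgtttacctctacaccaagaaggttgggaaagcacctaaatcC
Across these 90 bases the first pair differs at 2 bases and the second pair at 1. Values of the copies and of their parent genes are therefore uncertain one by one, since the authors' counting could split such reads between them.

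Rps3a3 had 2.97, 3.18 and 1.89 CPM in KO against 157, 149 and 264 CPM in WT (log2 fold change -6.15, SE 0.431, edgeR with Benjamini-Hochberg adjusted p = 1.66e-06). Gm5586, another Rps3a copy, had 1.99, 2.62 and 1.32 CPM in KO against 20.4, 15.98 and 16.5 CPM in WT (log2 fold change -3.16, SE 0.352, edgeR with Benjamini-Hochberg adjusted p = 0.00019). Rps3a2 had 22.8, 32.5 and 17.7 CPM in KO against 77.5, 65.8 and 65.9 CPM in WT (log2 fold change -1.52, SE 0.286, edgeR with Benjamini-Hochberg adjusted p = 0.0393). All 3 copies were low in every KO library, and Rps3a2 kept the most signal there. The call of Rps3a2 was lost in 5 of the 6 fits that left out 1 library, where its adjusted p in edgeR reached 0.26, and Gm5586 was not called without number 4120 in every group (edgeR with Benjamini-Hochberg adjusted p = 0.0735). Rps3a2 was also lost without number 4120 or 6110 in every group (edgeR with Benjamini-Hochberg adjusted p of up to 0.851). The parent gene Rps3a1 had 805, 1000.02 and 670.2 CPM in KO against 375, 331 and 412 CPM in WT. Each KO library was above each WT library for Rps3a1, but the gene did not pass (log2 fold change 1.15, SE 0.269, edgeR with Benjamini-Hochberg adjusted p = 0.137). Added up over Rps3a1 and its 6 close copies that were tested, the CPM were 838, 1046 and 694 in KO and 637, 567 and 764 in WT, so that the genotypes overlapped. The called copies took 3.31, 3.66 and 3.004% of that sum in KO and 40.1, 40.6 and 45.4% in WT.

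The copies of Rpl34 showed the same arrangement. Rpl34-ps1 had 1.96, 2.73 and 0.944 CPM in KO against 208, 95.5 and 113 CPM in WT (log2 fold change -6.22, SE 0.526, edgeR with Benjamini-Hochberg adjusted p = 1.02e-05). Gm10154 on chromosome 4 had 0.196, 0.225 and 0.143 CPM in KO against 71.9, 33.7 and 48.5 CPM in WT (log2 fold change -8.08, SE 0.563, edgeR with Benjamini-Hochberg adjusted p = 1.66e-06). Gm4705 on chromosome 17, inside Mtcl1, had 0.163, 0.150 and 0.0572 CPM in KO against 12.3, 6.01 and 5.92 CPM in WT (log2 fold change -6.01, SE 0.581, edgeR with Benjamini-Hochberg adjusted p = 5.53e-05). In KO, Gm10154 and Gm4705 stood at a few counts per library, close to the limit of detection. Rpl34-ps2, below 5 CPM in both genotypes, also fell (log2 fold change -4.15, edgeR with Benjamini-Hochberg adjusted p = 0.00521), a call lost without the KO library 4120 or 414, where the adjusted p reached 0.0604. It was also lost without number 4120 or 6110 in every group (edgeR with Benjamini-Hochberg adjusted p of up to 0.421). Rpl34 itself had 401, 519 and 291 CPM in KO against 58.8, 156 and 191 CPM in WT, without overlap, and did not pass (log2 fold change 1.58, SE 0.564, edgeR with Benjamini-Hochberg adjusted p = 0.548). The sum of Rpl34 and its 5 close copies that were tested was 404, 522 and 293 CPM in KO and 354, 293 and 361 CPM in WT, which overlapped. Its called copies took 0.590, 0.609 and 0.421% of the sum in KO and 83.2, 46.5 and 46.9% in WT. The grouping into families was made after these values had been seen.

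**Figure D2:**
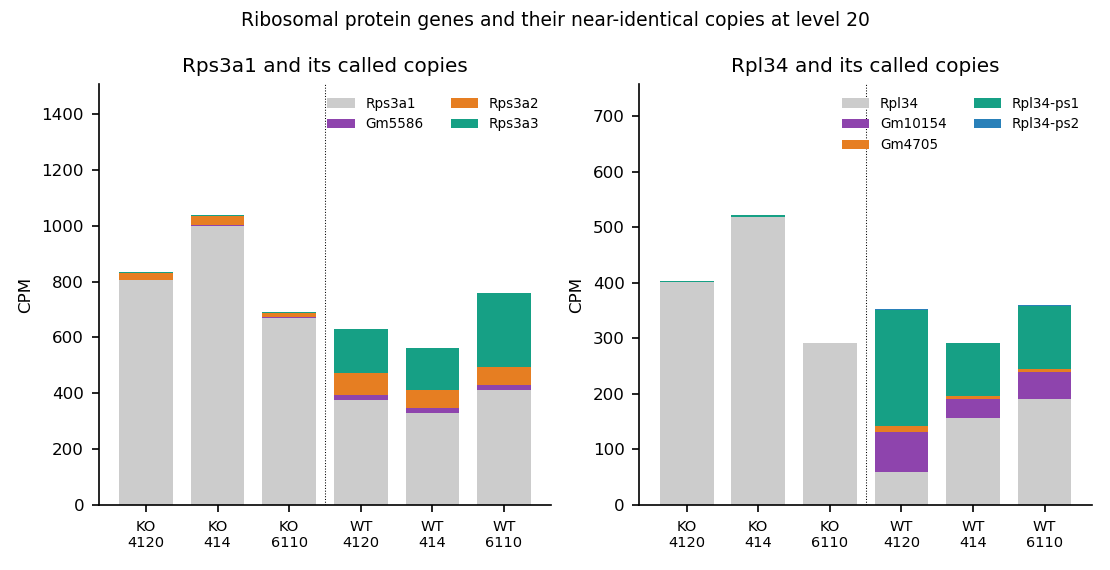
Stacked bars give the CPM of the parent gene and of its called copies in each library at level 20, KO libraries left of WT libraries, for the Rps3a and the Rpl34 family. The called copies are a thin layer in KO, 3.004 to 3.66% and 0.421 to 0.609% of the family sums, and 40.1 to 45.4% and 46.5 to 83.2% in WT.

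Pseudogenes and copies related to other genes were also called, in both directions. Gm5900 on chromosome 7, a copy of Lamtor3 (a scaffold of the lysosomal Ragulator complex) with 2 mismatches in 375 bases, had 0.621, 0.262 and 0.229 CPM in KO against 49.2, 19.6 and 53.6 CPM in WT (log2 fold change -6.77, SE 0.505, edgeR with Benjamini-Hochberg adjusted p = 2.77e-06). Lamtor3 overlapped between the genotypes, with 69.6, 55.6 and 71.1 CPM in KO and 45.3, 71.4 and 54.4 CPM in WT. The sum of this pair was 70.2, 55.8 and 71.4 CPM in KO and 94.5, 91.0 and 108 CPM in WT, every KO library being the lower. Gm9008 on chromosome 6, which matched the ubiquitin ligase gene Rnf26 with 17 mismatches in 2322 bases, was the pseudogene that rose. It had 5.29, 8.61 and 8.35 CPM in KO against 0.808, 0.702 and 0.701 CPM in WT (log2 fold change 3.33, SE 0.354, edgeR with Benjamini-Hochberg adjusted p = 0.000139), and Rnf26 overlapped (log2 fold change -0.12). Gm9522 on chromosome 15 had 0.0327, 0.0374 and 0.0572 CPM in KO against 13.0, 39.2 and 10.3 CPM in WT (log2 fold change -8.78, SE 0.95, edgeR with Benjamini-Hochberg adjusted p = 0.000154). Its best protein-coding match was the transcript of the glycolytic gene Gapdh at 85.8% identity, below the 90% taken here as a close copy. Gm6682, a copy of the tubulin gene Tuba1c, had 1.21, 1.76 and 1.03 CPM in KO against 8.17, 5.73 and 6.56 CPM in WT (log2 fold change -2.36, SE 0.405, edgeR with Benjamini-Hochberg adjusted p = 0.0189). The Gm6682 call was lost in 5 of the 6 fits that left out 1 library, with an adjusted p of up to 0.166. It was also lost whichever number was left out of every group (edgeR with Benjamini-Hochberg adjusted p of up to 0.326).

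The protein-coding genes Add2, Nectin1 and Styk1 fell. Add2, which encodes β-adducin, a protein that caps actin filaments and joins them to spectrin, had 2.94, 4.23 and 6.38 CPM in KO against 112, 248 and 116 CPM in WT (log2 fold change -5.13, SE 0.504, edgeR with Benjamini-Hochberg adjusted p = 5.87e-05). Nectin1, an immunoglobulin-like adhesion receptor, had 0.131, 0.0749 and 0.172 CPM in KO against 12.1, 12.9 and 15.9 CPM in WT (log2 fold change -6.69, SE 0.669, edgeR with Benjamini-Hochberg adjusted p = 6.59e-05). Styk1, which encodes a membrane-bound kinase-like receptor, had 10.5, 7.07 and 9.56 CPM in KO against 109, 321 and 283 CPM in WT (log2 fold change -4.71, SE 0.525, edgeR with Benjamini-Hochberg adjusted p = 0.00019). None of these came near an overlap between the genotypes. Styk1 was not called without number 6110 in every group (edgeR with Benjamini-Hochberg adjusted p = 0.0791). Nectin1 shares its place on chromosome 9 with the noncoding genes Gm30015 and Gm46108, and Gm46108 had 0 counts in every KO library and 427, 154 and 61 counts in WT (edgeR with Benjamini-Hochberg adjusted p = 0.104, not called). The paralogs Add1 and Add3 were not called (log2 fold changes 0.35 and 0.32), with every KO library above every WT library for both.

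Gm42048, a predicted protein-coding gene on chromosome 8 (121833991 to 121843902) with no known role, had 0.425, 0.337 and 0.229 CPM in KO against 84.4, 380.3 and 281 CPM in WT (log2 fold change -9.55, SE 0.783, edgeR with Benjamini-Hochberg adjusted p = 8e-06). Olfr920, annotated as an olfactory receptor, had 11.8, 6.81 and 24.2 CPM in KO against 96.7, 87.5 and 189.8 CPM in WT (log2 fold change -3.12, SE 0.43, edgeR with Benjamini-Hochberg adjusted p = 0.00207). Ano6, the calcium-activated phospholipid scramblase of the plasma membrane, had 25.97, 29.4 and 31.4 CPM in KO against 67.0, 63.9 and 83.8 CPM in WT (log2 fold change -1.31, SE 0.207, edgeR with Benjamini-Hochberg adjusted p = 0.00814). Gm42048 was close to absent in KO, whereas Ano6 was at a lower but clear level in all 3 KO libraries. Without the KO library 4120 or 414, or the WT library 6110, Ano6 was not called (edgeR with Benjamini-Hochberg adjusted p of up to 0.104). Ano6 was also lost whichever number was left out of every group (edgeR with Benjamini-Hochberg adjusted p of up to 0.364). Dixdc1, a DIX-domain protein of Wnt signalling, had 1.99, 2.02 and 2.60 CPM in KO against 9.34, 8.69 and 6.77 CPM in WT (log2 fold change -1.90, SE 0.275, edgeR with Benjamini-Hochberg adjusted p = 0.00338). Without number 4120 or 414 in every group neither Dixdc1 nor Olfr920 was called, with an edgeR Benjamini-Hochberg adjusted p of up to 0.42 for Dixdc1 and 0.138 for Olfr920. The noncoding 5033406O09Rik had 13.95, 13.6 and 16.5 CPM in KO against 39.7, 22.1 and 37.5 CPM in WT (log2 fold change -1.17, SE 0.226, edgeR with Benjamini-Hochberg adjusted p = 0.0482), the change of smallest size among the calls. It was called in 5 of 20 alternative analyses. Dixdc1 and Ano6 both overlap noncoding genes.

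Col6a3, the α3 chain of the extracellular matrix protein collagen VI, rose the most. It had 201, 73.0 and 60.2 CPM in KO against 0.808, 2.59 and 1.34 CPM in WT (chromosome 1, 90766860 to 90844001; log2 fold change 6.11, SE 0.777, edgeR with Benjamini-Hochberg adjusted p = 0.000934). The KO library 4120 was the highest and every KO library was far above every WT library. Col6a3 was called in each fit that left out 1 library, but not without number 414 in every group (edgeR with Benjamini-Hochberg adjusted p = 0.105). Its partner chain Col6a2 was at or near 0 in both genotypes, with 0, 11 and 0 counts in KO and 0, 3 and 0 counts in WT. Of 18 collagen and matrix genes 10 passed the filter on low counts, and Col6a3 was the 1 gene called among them (0.21% of all genes tested were called). That list was written with earlier results of these data known.

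Nxpe2 on chromosome 9, which overlaps its paralog Nxpe4, had 8.49, 10.97 and 6.84 CPM in KO against 0.269, 0.183 and 0.0915 CPM in WT (log2 fold change 5.61, SE 0.78, edgeR with Benjamini-Hochberg adjusted p = 0.0022). It was not called without number 414 in every group (edgeR with Benjamini-Hochberg adjusted p = 0.344). Kcnh6, a voltage-gated potassium channel of the ERG family, had 19.1, 18.7 and 13.0 CPM in KO against 1.39, 1.25 and 1.59 CPM in WT (log2 fold change 3.58, SE 0.666, edgeR with Benjamini-Hochberg adjusted p = 0.0381). Tanc2, a scaffold protein known from synapses, had 35.4, 30.1 and 24.3 CPM in KO against 7.23, 10.4 and 14.7 CPM in WT (log2 fold change 1.47, SE 0.276, edgeR with Benjamini-Hochberg adjusted p = 0.0387). Kpna2, an importin α that carries proteins into the nucleus and is high in dividing cells, had 30.6, 27.4 and 15.6 CPM in KO against 7.72, 8.60 and 7.29 CPM in WT (log2 fold change 1.64, SE 0.254, edgeR with Benjamini-Hochberg adjusted p = 0.00668). Kcnh6, Tanc2 and Kpna2 all lie on chromosome 11, at 106008044, 105589460 and 106988629, and were the 3 genes called there. Kpna2 has a copy, Gm10184, at 99.9% identity over 1968 bases. The sum of Kpna2 and its 2 tested copies was 35.4, 32.9 and 19.0 CPM in KO and 10.6, 11.3 and 9.79 CPM in WT, again without overlap.

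Hmgn1, a high mobility group protein that binds nucleosomes, had 4.28, 7.26 and 8.61 CPM in KO against 0.763, 0.946 and 1.40 CPM in WT (log2 fold change 2.68, SE 0.502, edgeR with Benjamini-Hochberg adjusted p = 0.0387). Clba1, which carries a clathrin-binding motif, had 10.6, 12.2 and 16.4 CPM in KO against 3.86, 2.84 and 4.15 CPM in WT (log2 fold change 1.85, SE 0.252, edgeR with Benjamini-Hochberg adjusted p = 0.0019). Rabif, which binds and stabilises Rab GTPases of the exocytic pathway, had 86.6, 58.4 and 57.1 CPM in KO against 25.0, 20.8 and 24.3 CPM in WT (log2 fold change 1.53, SE 0.278, edgeR with Benjamini-Hochberg adjusted p = 0.0319). For all 3 the lowest KO library was above the highest WT library. Clba1 was called in each fit that left out 1 library, but not without number 4120 or 414 in every group (edgeR with Benjamini-Hochberg adjusted p of up to 0.226). Of these rises, Rabif and Kcnh6 were not called in any of the 6 fits that left out 1 library, Hmgn1 and Tanc2 not in 5 of them, and Kpna2 not without the KO library 4120 or the WT library 6110. Their largest Benjamini-Hochberg adjusted p in those edgeR fits was 0.208 for Rabif, 0.201 for Kcnh6, 0.209 for Hmgn1, 0.229 for Tanc2 and 0.0572 for Kpna2. Rabif, Kcnh6 and Hmgn1 were also lost whichever number was left out of every group, and Tanc2 and Kpna2 without number 4120 or 414. In those edgeR fits the Benjamini-Hochberg adjusted p reached 0.534 for Rabif, 0.42 for Kcnh6, 0.751 for Hmgn1, 0.738 for Tanc2 and 0.351 for Kpna2. Among 9 high mobility group genes, a list written with earlier results known, Hmgn1 was called (0.21% of all genes tested were called). Hmgn5 averaged 3.98 ± 0.753 CPM in KO and 8.40 ± 2.03 CPM in WT (SD, n = 3 each; edgeR with Benjamini-Hochberg adjusted p = 0.595).

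**Figure D3:**
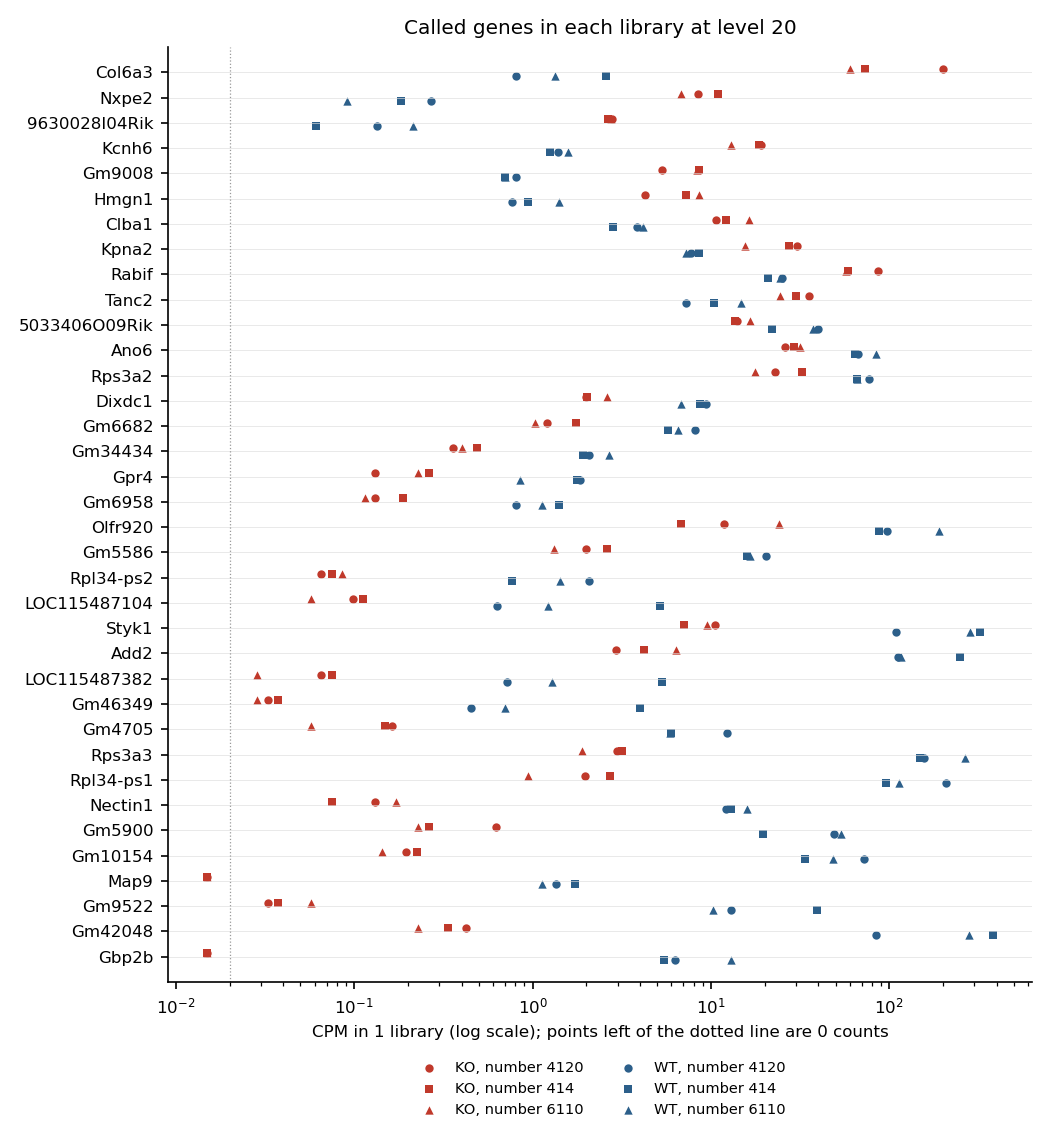
CPM of the 36 called genes in each library at level 20 on a log axis, KO in red and WT in blue, with marker shape for the number (circle 4120, square 414, triangle 6110); points left of the dotted line are libraries with 0 counts. For every gene the 3 KO points lie on one side of the 3 WT points.

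Gbp2b, which encodes guanylate-binding protein 1, an interferon-inducible GTPase of cell-autonomous immunity, was not detected in KO. It had 0, 0 and 0 counts in KO against 140, 180 and 427 counts in WT, which is 0 CPM against 6.28, 5.49 and 13.0 CPM and at least 254-fold lower when 3 counts over the KO group are taken as the limit (edgeR with Benjamini-Hochberg adjusted p = 0.000934). Gbp2b was called in each fit that left out 1 library, but not without number 4120 in every group (edgeR with Benjamini-Hochberg adjusted p = 0.0793). Its neighbour Gbp2, whose transcript is 83.4% identical to that of Gbp2b over the aligned part, had 17.8, 19.9 and 21.4 CPM in KO and 8.71, 11.4 and 9.55 CPM in WT. The 250 bases before the transcript start used in the RefSeq promoter table are given here for both genes, which are neighbours on chromosome 3, on GRCm38.p6, plus strand, because the gene without reads and the gene with reads in every KO library lie side by side; capitals mark a match to the interferon-stimulated response element (ISRE), searched as GAAANNGAAA on both strands.
Gbp2b, chr3:142594597-142594846: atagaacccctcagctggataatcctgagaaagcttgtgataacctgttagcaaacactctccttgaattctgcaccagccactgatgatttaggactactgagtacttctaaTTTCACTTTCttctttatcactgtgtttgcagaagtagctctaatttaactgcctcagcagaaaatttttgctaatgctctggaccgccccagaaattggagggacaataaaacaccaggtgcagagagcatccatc
Gbp2, chr3:142620413-142620662: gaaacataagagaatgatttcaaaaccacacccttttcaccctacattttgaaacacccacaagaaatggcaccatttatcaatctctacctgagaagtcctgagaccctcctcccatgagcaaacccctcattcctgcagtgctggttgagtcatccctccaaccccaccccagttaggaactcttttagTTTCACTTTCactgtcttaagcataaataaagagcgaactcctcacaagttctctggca
Both windows held 1 match, on the minus strand, at position -137 in Gbp2b and -59 in Gbp2 relative to the transcript start of that table. RefSeq's gene record places the start of Gbp2b at 142594816, so the last bases printed for Gbp2b lie inside the gene as that record has it. The same letters occur in 3.44% of the 32851 RefSeq promoter windows of the table used. Each window searched is 300 bases long, and the first 250 are printed here for the 2 genes. A second search, for the letters TTCNNNGAA, found no match in either window and one in 8.30% of all windows. A match or its absence is a description of these letters only.

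The other guanylate-binding protein genes that were tested did not pass, and they were put beside Gbp2b after their values had been seen. Gbp9, Gbp4 and Gbp6, which lie on chromosome 5, were lower in every KO library than in any WT library. Gbp9 had 25.2, 14.3 and 30.7 CPM in KO and 95.2, 76.4 and 62.8 CPM in WT (log2 fold change -1.74, SE 0.36, edgeR with Benjamini-Hochberg adjusted p = 0.0676). Gbp4 averaged 42.3 ± 16.3 CPM in KO and 129 ± 49.8 CPM in WT, and Gbp6 averaged 34.6 ± 11.5 CPM in KO and 66.2 ± 19.1 CPM in WT (SD, n = 3 each). Gbp2, on chromosome 3, was the member whose KO libraries were all above the WT libraries (log2 fold change 0.99, SE 0.406, edgeR with Benjamini-Hochberg adjusted p = 0.611). Gbp3, Gbp5, Gbp7 and Gbp8 overlapped between the genotypes, with log2 fold changes of -0.02, -0.11, -0.24 and -0.99. Of 30 interferon-inducible genes listed 27 were tested: 13 had a positive value, Gbp2b was called (0.21% of all genes tested were called), and the median log2 fold change was -0.02, that of all genes. Their summed level was 311 to 396 CPM in KO and 482 to 613 CPM in WT, a gap to which Gbp9, Gbp4 and Gbp6 contribute.

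**Figure D4:**
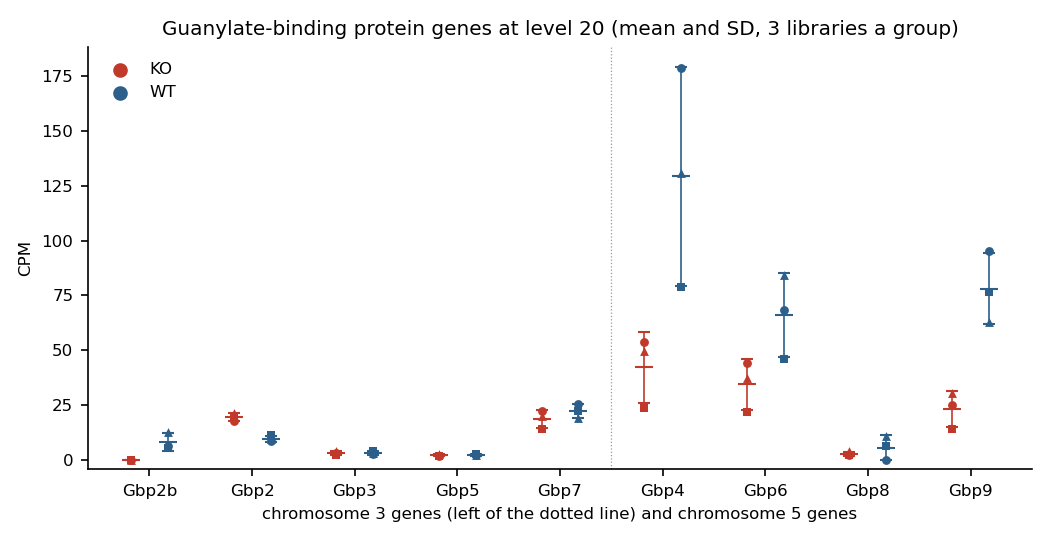
CPM of the 9 tested guanylate-binding protein genes in each library at level 20, KO left of WT, with the mean and SD of 3 libraries; marker shape gives the number. Gbp2b is at 0 in KO, Gbp9, Gbp4 and Gbp6 lie lower in KO without overlap, Gbp2 lies higher in KO, and Gbp3, Gbp5, Gbp7 and Gbp8 overlap.

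The 9 called genes below 5 CPM in both genotypes included Map9, a microtubule-associated protein of the mitotic spindle, with 0 counts in KO and 124 in WT (at least 43.2-fold lower, edgeR with Benjamini-Hochberg adjusted p = 0.00521). Map9 was not called without number 414 or 6110 in every group (edgeR with Benjamini-Hochberg adjusted p of up to 0.195). The proton-sensing receptor gene Gpr4 had 4, 7 and 8 counts in KO against 41, 58 and 28 in WT (log2 fold change -2.82, edgeR with Benjamini-Hochberg adjusted p = 0.0473). The noncoding 9630028I04Rik had 2.78, 2.66 and 2.75 CPM in KO against 0.135, 0.0610 and 0.213 CPM in WT (log2 fold change 4.28, edgeR with Benjamini-Hochberg adjusted p = 0.0319). The predicted gene Gm6958 (log2 fold change -2.93), the noncoding Gm34434 (-2.41) and the pseudogenes Gm46349 (-5.55), LOC115487382 (-5.37) and LOC115487104 (-4.69) also fell, with Rpl34-ps2 given above. Gm34434 lost its call whichever of the 3 numbers was left out of every group (edgeR with Benjamini-Hochberg adjusted p of up to 0.184). In Gm46349, LOC115487382 and LOC115487104, the WT library 414 had 131, 174 and 171 counts, far more than either other WT library, and their calls were lost without it, as they were without any 1 of the KO libraries. Gpr4, 9630028I04Rik and Gm6958 were each lost in 5 or 6 of the 6 fits that left out 1 library.

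The called genes lay on 15 chromosomes, with 4 each on chromosomes 6, 9 and 12. Those on chromosome 9 lay in 1 part of it, starting at 38752796 (Olfr920), 43737075 (Nectin1), 48318003 (Nxpe2) and 50662752 (Dixdc1). Nxpe2 was higher in KO and the others were lower. The reason for their nearness was not tested. Close neighbours, under 2 Mb apart, were Kcnh6 and Tanc2 (419 kb), Kpna2 and Kcnh6 (981 kb) and Kpna2 and Tanc2 (1399 kb), all higher in KO. Gbp2b and the noncoding Gm34434 on chromosome 3 lay 1783 kb apart and were both lower. Clba1 and 5033406O09Rik on chromosome 12 lay 867 kb apart, and Clba1 was higher where 5033406O09Rik was lower.

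A further set of genes had no count in 1 genotype and over 30 counts in the other. There were 15 such genes with reads in WT alone and 11 with reads in KO alone, and of these Gbp2b and Map9 were called. Gm32131 on chromosome 9 had 30, 36 and 28 counts in KO and 0 in every WT library, and the lectin-like receptor gene Clec12a on chromosome 6 had 14, 15 and 6 counts in KO and 0 in WT. Scn2b had 16, 26 and 8 counts in KO and 0 in WT, and March10 had 10, 14 and 17 counts in KO and 0 in WT. On chromosome 9, Gm46108, Scn2b (start 45117876) and Gm32131 (start 48418132) lie between the starts of Nectin1 and Dixdc1. March10 (start 105360798) lies on chromosome 11, near Tanc2. Fstl4 had 0 counts in every KO library and 18, 13 and 8 counts in WT. Gm20716, Gm12248 and Strc had reads in 1 library alone, Gm20716 with 1058 counts in the KO library 6110 and 0 in the other 5 libraries.

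The called genes kept their direction at the other levels. All 36 had the same sign at 0 and at 60 as at 20, 29 of them were also called at 0, where 47 genes were called in all, and 29 at 60, where 46 were called. At all 3 levels 26 were called, and Gm6958, LOC115487382, LOC115487104 and Gm46349 were called at 20 alone. Add2, for example, had log2 fold changes of -4.99 at 0, -5.13 at 20 and -4.88 at 60, and Col6a3 6.20 at 0, 6.11 at 20 and 6.55 at 60. These levels have separate libraries, but values particular to 1 number recurred across them. The tryptase gene Tpsg1 had 5.04, 5.07 and 5.49 CPM in WT 4120 at 0, 20 and 60, and 184 to 321 CPM in the other WT libraries. The neutrophil marker Ly6g had 5.07, 3.14 and 9.85 CPM in KO 414, and at most 0.742 CPM in the other KO libraries. Libraries of the same genotype and number may therefore share a source, and the calls at 0 and 60 cannot be taken as independent repeats of those at 20. The difference between the genotype effects at 20 and at 0 was not significant for any gene (0 of 17159, 0%, edgeR with Benjamini-Hochberg adjusted p under 0.05; 68 genes at an unadjusted p under 0.05, and 1 gene called by DESeq2). The difference between 20 and 60 was likewise not significant for any gene (0%, edgeR; 154 genes at an unadjusted p under 0.05, and 0 called by DESeq2). Among the 36 called genes the median absolute difference in log2 fold change was 0.267 between 20 and 0 and 0.389 between 20 and 60. The fit took all libraries as independent and had no term for a number within a genotype. Spread between numbers that recurs at each level therefore stays in the error of these differences. The 68 and 154 genes are fewer than an unadjusted threshold of 0.05 would pass if no gene differed. The test may thus miss differences, and the lack of calls does not show equal genotype effects.

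**Figure D5:**
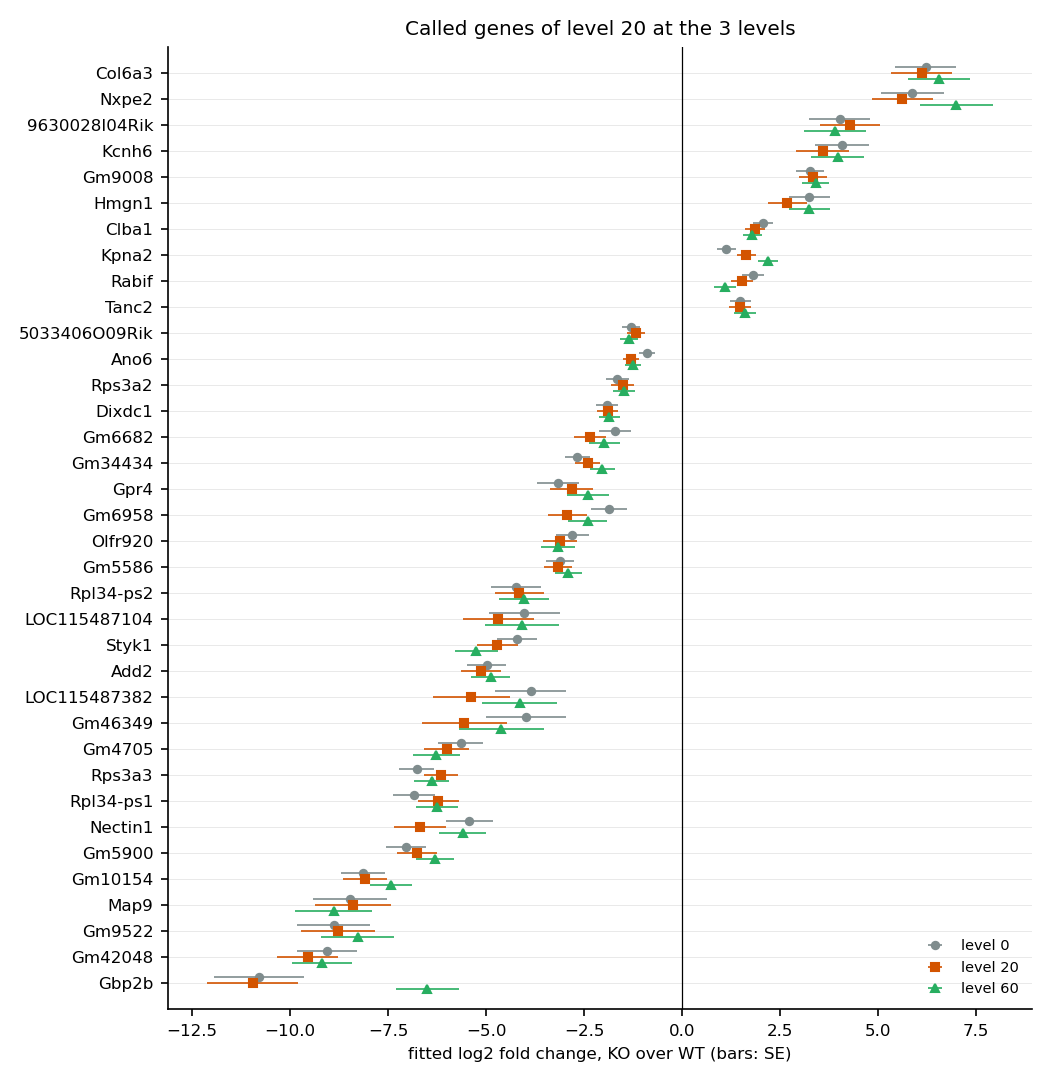
Fitted log2 fold change (KO over WT) of the 36 called genes at levels 0, 20 and 60, with bars for the SE. The 3 points of each gene lie on the same side of 0; those of Gbp2b at 0 and 20 and of Map9 at all 3 levels rest on a genotype with no counts and are not bounds.

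The gene nearest to a difference between levels was Tagap1, a T-cell activation GTPase-activating protein gene. In untreated cells KO libraries averaged 8.55 ± 1.32 CPM of Tagap1 and WT libraries 54.0 ± 16.6 CPM (SD, n = 3 each). At 20 these means were 66.1 ± 18.3 CPM for KO and 61.5 ± 19.4 CPM for WT, and at 60 they were 26.6 ± 4.42 CPM for KO and 35.9 ± 7.84 CPM for WT. Its genotype effect at 20 exceeded that at 0 by 2.76 on the log2 scale (SE 0.399, edgeR with Benjamini-Hochberg adjusted p = 0.0627). The 3 KO libraries at 0 were all below 11 CPM and no other group of Tagap1 came near that level. It was the 1 gene that DESeq2 called for this difference, and edgeR called it in 4 alternatives, among them the fits without the KO library 4120 or the WT library 414 at level 20. The next genes by p were Cpne1 (-0.61), Cpeb2 (-1.45), Zfp637 (0.74) and Pdzd8 (-0.90), given as differences in log2 fold change, 20 minus 0. For 20 minus 60 they were Got1 (-0.95), Ovca2 (-0.95), Gem (-2.54), Frmd4b (-1.08) and Osgin2 (-0.83). None of these 9 passed, with an edgeR Benjamini-Hochberg adjusted p of 1.00 for each.

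No gene of the early response was called at this level. Of 24 immediate early genes, the transcription factor genes induced within minutes of stimulation, 14 had a positive log2 fold change, none was called, none had an unadjusted p under 0.05, and the median was 0.01. Fos had 885, 1198 and 641 CPM in KO and 495, 995 and 589 CPM in WT (log2 fold change 0.39, edgeR with Benjamini-Hochberg adjusted p = 0.742), and Egr1 averaged 2691 ± 469 CPM in KO and 2513 ± 469 CPM in WT (SD, n = 3 each). Libraries of the genotypes overlapped for both. Of 24 tested cytokine and chemokine genes 13 had a positive value, with a median of 0.10 and none called. Tnf had 902, 1368 and 792 CPM in KO and 354, 938 and 859.9 CPM in WT (log2 fold change 0.51, edgeR with Benjamini-Hochberg adjusted p = 0.796). Il6 averaged 207 ± 98.9 CPM in KO and 176 ± 78.0 CPM in WT, and Il13 averaged 134 ± 45.4 CPM in KO and 143 ± 43.1 CPM in WT (SD, n = 3 each). The medians of the same lists at 60 were 0.80 for the immediate early genes and 1.09 for the cytokines, against -0.24 and -0.06 at 0. Differences between levels were not significant for any of their genes, in a test that may miss differences, as said above.

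Receptors and signalling genes gave a similar picture. None of 18 genes of the IgE receptor, its kinases and adaptors was called, 6 were positive and the median was -0.04. Fcer1a, the IgE-binding chain, averaged 2801 ± 459.6 CPM in KO and 2021 ± 193 CPM in WT without overlap (SD, n = 3 each; two-sided exact permutation test p = 0.1, the smallest possible; edgeR with Benjamini-Hochberg adjusted p = 0.733). Kit averaged 1949 ± 125 CPM in KO and 1395 ± 296 CPM in WT, also without overlap (SD, n = 3 each; two-sided exact permutation test p = 0.1; edgeR with Benjamini-Hochberg adjusted p = 0.664). The β chain gene Ms4a2 overlapped (log2 fold change -0.05). Of 15 tested genes of the TLR4 complex and its adaptors 7 were positive, with a median of -0.01, and Tlr4 averaged 45.2 ± 9.56 CPM in KO and 39.2 ± 8.87 CPM in WT (SD, n = 3 each). Of 20 NF-κB targets and feedback genes 7 were positive with a median of -0.07, and Nfkb2, which encodes the p100 precursor, was lower in every KO library (131 ± 14.3 CPM in KO and 199.8 ± 17.99 CPM in WT, SD, n = 3 each; edgeR with Benjamini-Hochberg adjusted p = 0.617). Of 14 MAPK feedback inhibitors 9 were positive, with a median of 0.13. Of 20 genes of calcium release and entry 12 were positive, with a median of 0.03, and the calcium release channel gene Itpr2 had 118, 145 and 110.4 CPM in KO and 779, 329 and 224 CPM in WT (log2 fold change -1.83, SE 0.551, edgeR with Benjamini-Hochberg adjusted p = 0.408). Kcnn4, a calcium-activated potassium channel gene of the same list, had 187, 284 and 260.5 CPM in KO and 39.5, 82.1 and 176 CPM in WT, without overlap (log2 fold change 1.30, SE 0.581, edgeR with Benjamini-Hochberg adjusted p = 0.629).

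Metabolic lists leaned to KO without a called gene. All 27 genes of sterol synthesis and uptake had a positive log2 fold change, with a median of 0.29. Of these 5 had an unadjusted p under 0.05, which 7.79% of all genes tested had in either direction, and 8 had all KO libraries above all WT libraries, as did 8.35% of all genes tested. The smallest p was that of Hsd17b7, an enzyme of cholesterol synthesis, which averaged 2.19 ± 0.678 CPM in KO and 0.608 ± 0.312 CPM in WT (SD, n = 3 each; log2 fold change 1.82, edgeR with Benjamini-Hochberg adjusted p = 0.119). The desaturase gene Scd1 had a log2 fold change of 1.23 and the cholesterol carrier gene Stard4 one of 0.62. Without the WT library 4120, which has the high mitochondrial share, 24 of the 27 were positive and the median was 0.33. Of 24 genes of glycolysis and lactate handling 19 were positive, with a median of 0.52, and 6 had all KO libraries above all WT libraries (8.35% of all genes tested). Tpi1 averaged 871 ± 245 CPM in KO and 436 ± 63.6 CPM in WT, and the lactate dehydrogenase gene Ldha averaged 1222 ± 115 CPM in KO and 741 ± 118 CPM in WT (SD, n = 3 each). No glycolytic gene had an unadjusted p under 0.05, and the median was 0.38 without the WT library 4120.

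Of 21 tested genes of base excision, PARP and break repair 5 were positive, with a median of -0.14, and the summed level was 482 to 543 CPM in KO and 589 to 708 CPM in WT. Parp2, a DNA damage-sensing ADP-ribosyltransferase, averaged 47.9 ± 9.45 CPM in KO and 73.4 ± 14.2 CPM in WT, and the checkpoint kinase gene Atr 30.8 ± 8.24 CPM in KO and 45.2 ± 7.42 CPM in WT (SD, n = 3 each). Neither was called. With scaling by library size alone, under which the median of all genes was 0.14, 11 of the 21 genes were positive. Relative to the median of all genes the list's median was -0.12 with TMM scaling and -0.13 with library size alone, and 6 and 5 of its genes lay above that median. Of 16 NRF2 targets 10 were positive, with a median of 0.06. Gpx4, the lipid peroxide-reducing enzyme, averaged 744 ± 234 CPM in KO and 419 ± 59.8 CPM in WT, and the sulfiredoxin gene Srxn1 averaged 615 ± 141 CPM in KO and 1016 ± 139 CPM in WT (SD, n = 3 each). Both were without overlap and neither was called. Of 24 cell cycle genes Kpna2 was called, 13 were positive and the median was 0.00. Add2 was the 1 call among 11 tested genes of the membrane skeleton, whose median was -0.04, and Nectin1 the 1 call among 7 tested nectins and adhesion partners, with a median of -0.05. Over all genes tested 0.21% were called. The lists were written with earlier results of these data known, so 1 call in a list is no result about that family. No gene was called of 20 integrated stress response genes (13 positive, median 0.10), 12 heat shock genes (9 positive, median 0.19), 9 tested eicosanoid synthesis genes (3 positive, median -0.03) or the 7 sirtuins (2 positive, median -0.11).

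No mast cell marker and no granule protease gene was called. Of the 18 mast cell markers 9 were positive, with a median of 0.02, and their sum was 37181 to 51840 CPM in KO and 31834 to 50671 CPM in WT. Of 14 granule protease genes 8 were positive, with a median of 0.08, and the transmembrane tryptase gene Tpsg1 had 14.5, 11.6 and 12.9 CPM in KO and 5.07, 253 and 255 CPM in WT (edgeR with Benjamini-Hochberg adjusted p = 0.556). The WT library 4120 was below every KO library for Tpsg1 and the other WT libraries were above them. Tpsab1, another tryptase gene, had 978, 2622 and 2838 CPM in KO and 175, 1025 and 1092 CPM in WT, with overlap (log2 fold change 1.49, edgeR with Benjamini-Hochberg adjusted p = 0.648). The tryptase gene Tpsb2 had 1422, 2750 and 1727 CPM in KO and 263, 6514 and 5280.1 CPM in WT, the WT library 4120 being the lowest of the 6. Of 21 tested genes of granules and secretion 15 were positive, with a median of 0.07 and none called, and the monoamine transporter gene Slc18a2 was lower in every KO library (1648 ± 397 CPM in KO and 2420 ± 495 CPM in WT; SD, n = 3 each).

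Markers of other cell types were read at levels that differed widely between the lists. The 16 neutrophil markers summed to 11.6 to 29.5 CPM in KO and 1.53 to 6.15 CPM in WT; none was at 0 throughout KO, and 3 were at 0 throughout WT. Of the 12 that passed the filter 11 were positive, with a median of 2.62 and none called, but the filter keeps low genes through the group in which they are high. S100a9 had 310, 36 and 145 counts in KO and 23, 0 and 12 in WT, and Ly6g had 13, 84 and 4 counts in KO and 0, 0 and 2 in WT. The 17 macrophage and monocyte markers summed to 87.9 to 264 CPM in KO and 47.2 to 191 CPM in WT, with C1qa and Marco at 0 in all 6 libraries. The 7 basophil markers summed to 134 to 192 CPM in KO and 152 to 237 CPM in WT, and the basophil proteases Mcpt8 and Prss34 were detected in every library. Megakaryocyte and platelet markers summed to 2862 to 4532 CPM in KO and 4574 to 5733 CPM in WT, the highest sum among these lists and most of it the integrin gene Itga2b, while Treml1 was at 0 in all 6. Erythroid, dendritic, B, T and NK cell and fibroblast markers summed to at most 51.2 CPM in any library, with Slc4a1, Siglech, Ighd and Cd3g at 0 throughout. The part of these cells in the differences above was not tested.

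Among genes that were not called, the 20 with an established name, at least 5 CPM in a genotype and the smallest p are given here. The serine protease gene Htra3 averaged 2.94 ± 0.134 CPM in KO and 7.45 ± 2.14 CPM in WT (SD, n = 3 each; edgeR with Benjamini-Hochberg adjusted p = 0.0508). Glo1, which detoxifies the glycolytic by-product methylglyoxal, averaged 43.4 ± 4.83 CPM in KO and 23.8 ± 2.65 CPM in WT (SD, n = 3 each; edgeR with Benjamini-Hochberg adjusted p = 0.0596). The adhesion molecule gene Cadm1 had 84.7, 78.0 and 124 CPM in KO and 12.2, 3.23 and 20.7 CPM in WT (log2 fold change 2.99, SE 0.73, edgeR with Benjamini-Hochberg adjusted p = 0.178). For all 3 genes the libraries did not overlap. The autophagy gene Vmp1 averaged 165 ± 31.9 CPM in KO and 335 ± 50.1 CPM in WT, and the mitotic transcription factor gene Foxm1 averaged 11.1 ± 3.24 CPM in KO and 24.4 ± 3.97 CPM in WT (SD, n = 3 each). The remaining log2 fold changes were -1.69 for Magohb, 1.07 for Tspan5, -1.32 for Lrmp, -1.64 for Chaf1b, 0.89 for Sh3d19, 0.79 for Atmin, -0.92 for Aoah and -0.69 for Ovca2. They were -2.12 for Sorl1, -1.64 for Far2, 0.78 for Dcaf7, -1.08 for Eda2r and -1.17 for Cdh24, with Gbp9 and Rps3a1 given above. DESeq2 called all 20 of these genes, but few other alternatives did. Of 20 alternatives, Htra3 passed in 5, whereas Aoah and Rps3a1 passed in 1.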

How the data were processed

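The authors deposited 1 table of 45777 genes with a read count per gene that was not normalized, an FPKM and a TPM for each of 18 libraries, per the file headers. The submitters' processing notes name mm10, StringTie 2.1.3b, HISAT2 2.1.0, FastQC 0.11.7 and bcl2fastq 2.20.0, without roles; libraries were made with a TruSeq RNA kit, per the labels' protocols. The counts were analysed, the deposited TPM served as an alternative, and the 18 FPKM columns were not used.

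Counts of all 18 libraries were filtered with filterByExpr (17159 genes kept), scaled with TMM and fitted with 1 mean per group by edgeR 4.0.16 quasi-likelihood in R 4.3.3. CPM use TMM-scaled library sizes. A gene was called where its p, adjusted by Benjamini-Hochberg over all genes tested, was under 0.05. Single values were compared with exact permutation tests of the mean log2(CPM + 0.1), 3 libraries against 3, whose smallest two-sided p is 0.1. Where a group had 0 counts, a bound used 3 counts over the group. Intervals and limits cover counting error only. RefSeq gave positions for 99.8% of IDs. GENCODE M21 transcripts were searched with blastn 2.17.0+, where a close copy has at least 90% identity over at least 80% of the transcript; 30 of the 36 called genes were found there by symbol.

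All called genes are named, those with at least 5 CPM in a genotype by library, with the 20 uncalled genes of smallest p. The members, the 33 gene lists and the rules were chosen with earlier results of these data known. Alternatives changed scaling, filter, fitted libraries and numbers, mitochondrial genes, fold threshold, unit (limma 3.58.1 on log2(TPM + 0.5)) and tool (DESeq2 1.42.0). The fitting steps were tested on simulated data.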

Additional observations from a re-analysis of the deposited data

Results flagged for a closer look

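Spry1, an inhibitor of MAPK signalling, had 3.59, 2.81 and 1.69 CPM in KO and 5.48, 3.69 and 3.69 CPM in WT at 20, every KO library being the lower, but 4.68, 3.49 and 4.07 CPM in KO and 1.26, 0.636 and 2.85 CPM in WT at 60, every KO library being the higher. The genotype effect at 20 minus that at 60 was -2.02 on the log2 scale (edgeR with Benjamini-Hochberg adjusted p = 1.00). Osgin2 had 17.6, 17.6 and 17.7 CPM in KO and 21.3, 20.2 and 18.3 CPM in WT at 20, and 49.9, 49.4 and 41.9 CPM in KO and 28.4, 28.0 and 33.3 CPM in WT at 60, a difference of -0.83 (edgeR with Benjamini-Hochberg adjusted p = 1.00). Zfp637 had 10.4, 10.7 and 9.80 CPM in KO and 12.1, 11.4 and 11.5 CPM in WT at 0, but 10.1, 15.0 and 10.3 CPM in KO and 7.14, 8.66 and 8.11 CPM in WT at 20, a difference of 0.74 between 20 and 0 (edgeR with Benjamini-Hochberg adjusted p = 1.00). These 3 genes stand out because the genotypes lay without overlap in opposite orders at 2 levels, and for none of them did the test of the difference between levels pass.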

How the results depend on the processing

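The count of 36 called genes was 37 with RLE scaling, 26 with library size alone, 46 without a filter, 38 with at least 1 CPM in 3 libraries, 33 without mitochondrial genes, 50 with the mitochondrial share as a covariate, 26 in the 6 libraries at 20 alone and 29 with limma on TPM. It was 119 with DESeq2 (41 higher, 78 lower). Leaving out 1 library or 1 number gave 18 to 32 calls; 20 genes passed in all 6 fits without 1 library and 10 in all 3 fits without 1 number. Of 720 values of the called genes under the alternatives, 524 stayed past the threshold, 196 did not and 0 changed sign; 10 genes passed in all 20: Add2, Gm10154, Gm42048, Gm4705, Gm5900, Gm9008, Gm9522, Nectin1, Rpl34-ps1 and Rps3a3. Library size alone moved the median of all genes to 0.14. Relative to that median, list medians were -0.01 for the IgE receptor (-0.02 with TMM), 0.02 for TLR4 (0.01), -0.07 for NF-κB (-0.05) and -0.13 for repair (-0.12), and changed sign for the interferon list (-0.02, against 0.00) and the membrane skeleton (0.04, against -0.02). For 20 minus 0, 1 gene (Tagap1) passed without a filter, with the stricter filter and with DESeq2, and 0 to 1 when a library or number was left out; for 20 minus 60 it was 0 throughout. The cause of these shifts was not tested.

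With the replicate block the count was 119 (41 higher, 78 lower), of which 74 were also called by DESeq2, and 31 with the block in the 6 libraries alone. With the block Lyz2 passed (edgeR with Benjamini-Hochberg adjusted p = 0.0279). Deviations of same-numbered libraries correlated at 0.208, 0.0174 and 0.369 at 20, at 0.268, -0.0177 and 0.430 at 0, and at 0.431, 0.526 and 0.489 at 60. They were above 0.1 for every number at 60 but not at 20, the level compared here, so the numbers were not taken to pair the libraries; the KO library 414 correlated best with the WT library 4120.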
